A study of Mus musculus with 12 samples.

Results

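The genes described here are the potassium channel genes of the mouse heart, taken as every gene on the array whose listed name begins with Kcn. The rule gave 84 genes of the 27667 on the array, measured by 123 probes, and each gene was read from its probe with the highest mean over the 12 arrays. Of the 84 genes, 71 entered the statistical fit because their probe was well above background on at least 3 arrays. The other 13 did not enter it, and 46 of the 84 were above background on all 12 arrays. Among those that did not enter were Kcna3, Kcna6, Kcnb2, Kcnc1, Kcne2, Kcnf1, Kcng3, Kcnh7, Kcnh8, Kcnk16, Kcns1 and Kcnv1, and Kcnv1 was above background on 0 arrays.

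Whole hearts came from male C57BL/6 mice in 4 groups of 3 hearts each, aged 1 or 2 months. The knockouts, cardioGRKO, carried a floxed allele of the glucocorticoid receptor gene together with Cre driven by the αMHC promoter, which is active in cardiomyocytes. The controls, GRflox, were littermates with the floxed allele and without Cre. All 4 groups therefore shared the floxed allele, and no control carried Cre, so an effect of Cre and an effect of losing the receptor cannot be told apart. A whole heart also holds vessels, fibroblasts and nerves, in which this Cre is not active, and fewer cells of a type and less RNA per cell cannot be told apart in it.

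Potassium channels let potassium leave or enter the cell, and in cardiomyocytes they repolarise the action potential and hold the resting potential. Inward rectifiers set the resting potential, voltage-gated alpha subunits form the transient outward and delayed rectifier currents, and two-pore channels carry background current. Auxiliary subunits change the gating or surface expression of the alpha subunits they bind. The glucocorticoid receptor, encoded by Nr3c1, is a hormone-activated transcription factor.

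The results turn on 8 genes, and the first 30 bases of the 60-base probe that read each of them are shown in lower case as the array design lists them, so that the transcript measured can be identified.
Kcnj14: ggtgaattttgtttttgtttgaagtgccat
Kcnv2: gcaatgtactccacattgtggagtcatatg
Kcna7: aggacagaaacccaaggctgtagtgtgctg
Kcne1l: cccaaatgcatctcttatattggttcagtt
Kcne1: acactctacaggtgacaagcggatctttct
Kcnj12: tagtctttttcatgttttttcgcagtagct
Kcnk3: ctgggaaatccttaggtggaaggaatctgg
Kcne4: gagaaagatgtgttgacttaaagacacagt

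In the build mm7 that the array files use, the probe of Kcnj14 lies at chr7:41993111-41993170 on the minus strand and that of Kcna7 at chr7:41586892-41586956 on the plus strand. The probe of Kcnv2 lies at chr19:27036941-27037000 on the plus strand, and that of Kcne1l at chrX:136969138-136969197 on the minus strand. The probe of Kcne1 lies at chr16:92401009-92401068 on the minus strand. The probes of Kcnj12 at chr11:61152141-61152199, Kcnk3 at chr5:29657234-29657293 and Kcne4 at chr1:79036190-79036249 are on the plus strand. The part of the transcript each probe covers (coding or untranslated) was not annotated here. Across all 8 probes, the longest stretch shared with a probe of another gene was 12 to 15 bases.

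Levels are log2 signals with the 75th percentile of each array set to 0, so that a negative level is below that percentile, and a difference of 1 is 2-fold. The array files gave Nr3c1, the targeted gene, at 2.56, 2.11 and 2.11 in the 1-month controls and at 1.21, 1.25 and 1.31 in the 1-month knockouts. The 2-month levels were 2.15, 2.04 and 1.99 in controls and 0.96, 0.95 and 0.86 in knockouts. Every knockout heart was below every control heart of its age, and part of the Nr3c1 signal remained in these whole hearts. The part of the transcript the Nr3c1 probe covers was not annotated here, so the extent of receptor loss cannot be read from it. Arrays correlated with each other at 0.937 to 0.987 over all genes. Features well above background made up 67.5% to 74.0% of 9 arrays and 79.4%, 79.6% and 82.2% of the other 3, which were the 1-month knockout replicate 1, the 2-month knockout replicate 3 and the 2-month control replicate 2.

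Most of the dimmest channel genes had their highest values on those 3 arrays, the bright arrays below. Of the 38 channel genes that were not above background on all arrays, 34 had their highest level on one of the 3 arrays. Of those 34, 23 were highest on the 2-month control replicate 2, 10 on the 2-month knockout replicate 3 and 1 on the 1-month knockout replicate 1. Of the 46 genes above background on all arrays, 25 had their highest level on one of the 3. The same background flag defined the 38 genes and the 3 arrays, so this contrast was partly fixed in advance. The median level of the 38 genes was between -5.68 and -4.10 on the 3 arrays and between -7.40 and -5.68 on the other 9. The ranges met at -5.68, the level of both the 1-month knockout replicate 1 and the 2-month knockout replicate 2. The latter had 69.9% of its features above background. The plot of bright and dim genes by array shows the dim genes tending to rise with the share of features above background. The part of array brightness in the differences of dim genes was not tested, and the channel genes that passed, with Kcnv2 and Kcnd3, are given without these arrays as well.

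**Figure D1:**
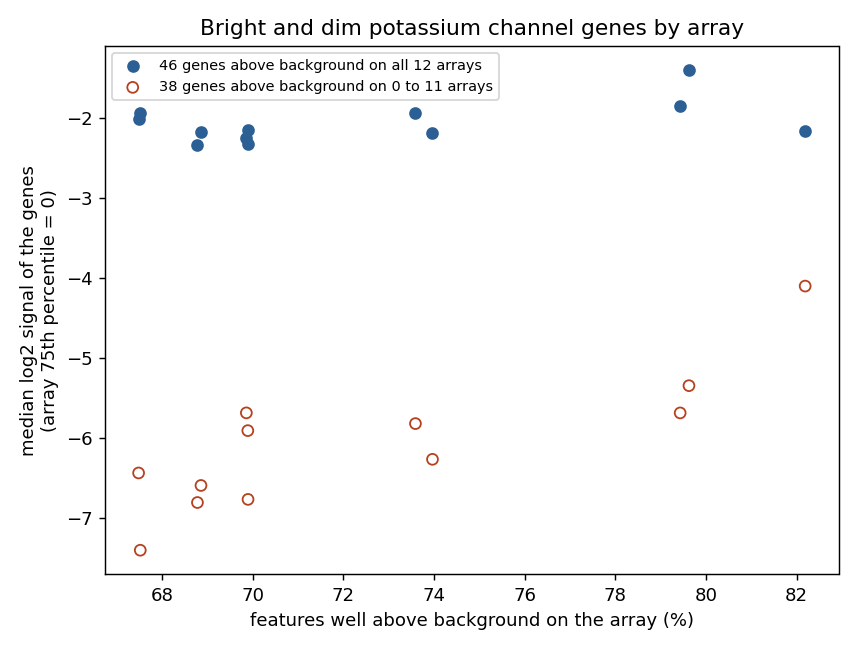
Median log2 level of the 46 channel genes above background on all arrays (filled) and of the other 38 (open), 1 point per array, against the percentage of features well above background on that array. The open points of the 3 arrays at 79.4% to 82.2% lie at -5.68 or above.

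The first question was which channel genes differed between cardioGRKO and GRflox hearts. The level of Kcnj14, which encodes the inward rectifier Kir2.4, was above the controls in every knockout heart of both ages, and that of Kcnv2, which encodes an electrically silent voltage-gated subunit, was below them. Kcnj14 passed the test at 2 months, where it was 3.33-fold higher, and no other channel gene passed at either age.

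In the 1-month controls Kcnj14 was at -4.32, -4.59 and -4.06, and in the 1-month knockouts at -3.04, -2.87 and -3.29. At 2 months it was at -2.99, -2.73 and -3.10 in controls and at -1.27, -0.998 and -1.35 in knockouts. Every knockout heart was above every control heart of its age, and the 1-month knockouts overlapped the 2-month controls. The log2 difference was 1.26 (SE 0.17) at 1 month, with a limma adjusted p of 0.0911, and 1.74 (SE 0.17) at 2 months, with a limma adjusted p of 0.00785. The difference between those 2 effects was 0.48 (SE 0.25, limma adjusted p of 1.0), so a larger effect at 2 months was not shown.

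The 2-month call on Kcnj14 was made from 1 probe and did not hold under every setting. It held in each of the 12 fits that left out 1 array. Without the 3 bright arrays the difference was 1.91 with a limma adjusted p of 0.106. With median centring of the arrays Kcnj14 differed by 1.69 with a limma adjusted p of 0.222. With normexp background and quantile scaling the size was smaller, 0.48 at 1 month with a limma adjusted p of 0.41 and 1.18 at 2 months with a limma adjusted p of 0.00289. Within slide 3 alone, which held 1 control and 2 knockouts of 2 months, the Kcnj14 difference was 1.97, in a fit where 0 of all genes passed. With slide as a fixed term it was 1.80 with a limma adjusted p of 0.148. Once the 2 arrays scanned on the other day, both of them knockouts, were left out, it was 1.81 with a limma adjusted p of 0.074. At 1 month each slide held 1 genotype only, so genotype cannot be told apart from slide there, and with slide as a random block the Kcnj14 difference was 1.25 with a limma adjusted p of 0.198.

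Kcnv2 was at -2.73, -2.76 and -3.29 in the 1-month controls and at -6.68, -4.81 and -4.67 in the 1-month knockouts. The 2-month levels were -1.46, -1.32 and -1.23 in controls and -3.28, -3.76 and -4.04 in knockouts. No knockout heart reached the control range at 1 or 2 months, and the 1-month knockout replicate 1 lay far below the other 2. That replicate was not above background for Kcnv2, while the other 11 arrays were. The log2 difference was -2.46 (SE 0.47, limma adjusted p of 0.205) at 1 month and -2.36 (SE 0.47, limma adjusted p of 0.132) at 2 months, so Kcnv2 did not pass at either age. Without the 1-month knockout replicate 1, the 2-month difference was -2.36 with a limma adjusted p of 0.0139, and the 1-month difference -1.82 with a limma adjusted p of 0.209. Without the 3 bright arrays Kcnv2 differed by -1.82 and -2.18, with limma adjusted p of 0.285 and 0.106. With both arrays scanned on the other day left out, Kcnv2 passed at 2 months in place of Kcnj14, at -2.18 with a limma adjusted p of 0.0365. With normexp background and quantile scaling Kcnv2 passed at 2 months as well, at -1.45 with a limma adjusted p of 0.00288, and with slide as a fixed term it was -1.77 with a limma adjusted p of 0.523.

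**Figure D2:**
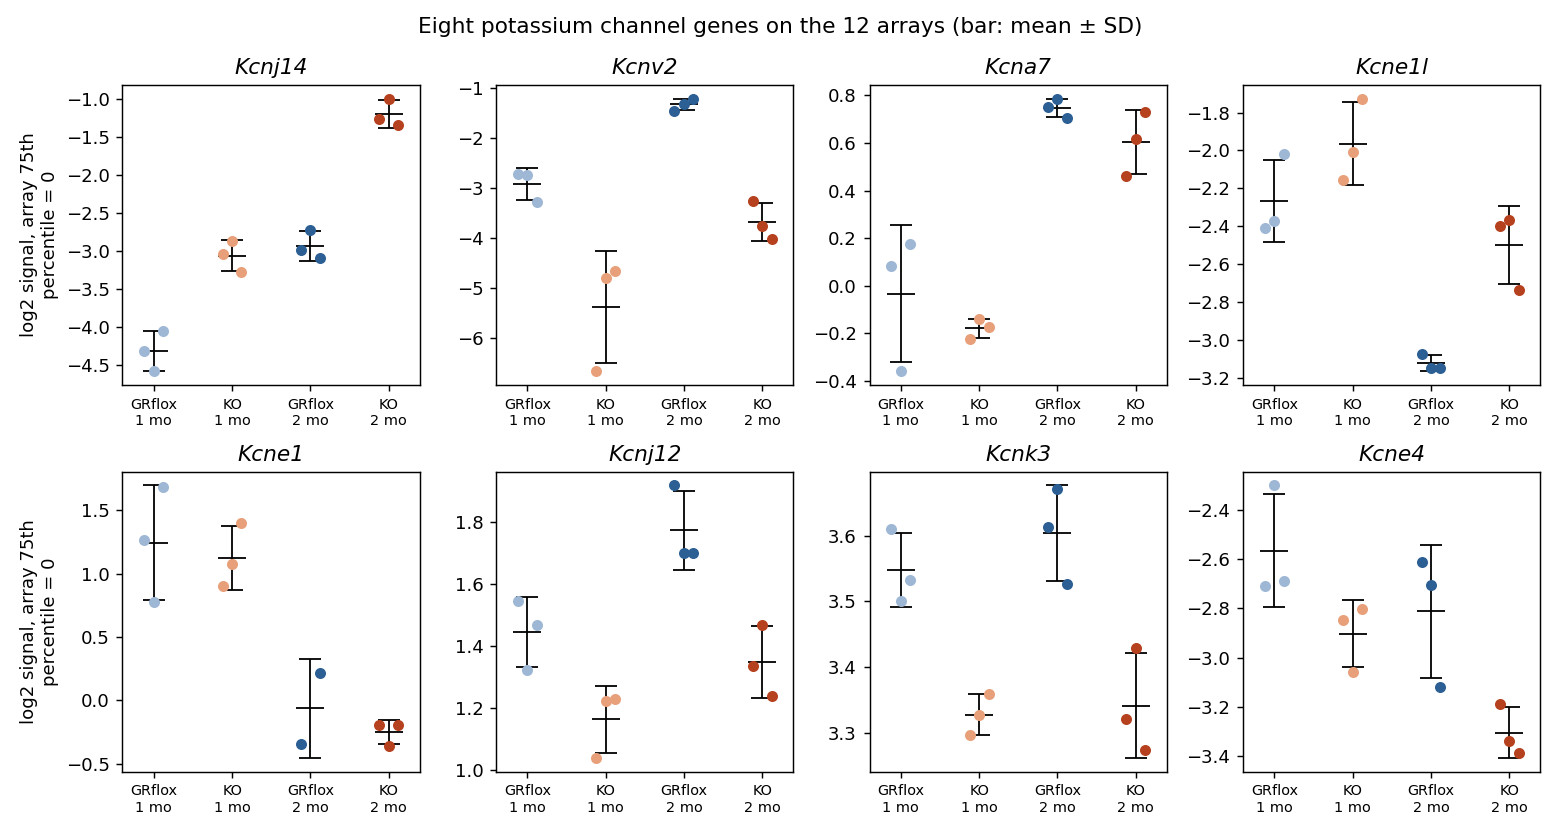
Log2 level of 8 channel genes on each array, with the array's 75th percentile at 0, in the 4 groups (KO, cardioGRKO; mo, months). Points are hearts and bars are the mean ± SD. Kcnj14 is higher and Kcnv2 lower in every knockout heart than in every control heart of the same age. Within each genotype Kcna7, Kcne1l and Kcne1 separate by age. At 2 months Kcne1l is also higher in every knockout heart than in every control heart, a difference that did not pass.

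Over all the channel genes, 0 of 71 passed at 1 month and 1 of 71 at 2 months, where 0.0274% and 0.137% of all genes passed, and 0.0775% passed in the higher direction at 2 months. An unadjusted p under 0.05 was reached by 6 channel genes at 1 month and by 8 at 2 months, which the 6.01% and 7.63% of all genes that did so can be set against. The difference between the 2 knockout effects passed for 0 of the 71 genes and for 0% of all genes.

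Groups that did not overlap were counted over the 66 tested channel genes with a value on every array. At 1 month 7 were higher and 5 lower in knockouts, where 8.96% and 9% of all genes did so. At 2 months 4 were higher and 7 lower, where 5.94% and 6.25% of all genes did so. At both ages Kcnj14 was the only channel gene higher without overlap, where 1.71% of all genes were. The 4 lower without overlap at both ages were Kcnv2, Kcnj12, Kcnk3 and Kcne4, where 2.16% of all genes were.

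**Figure D3:**
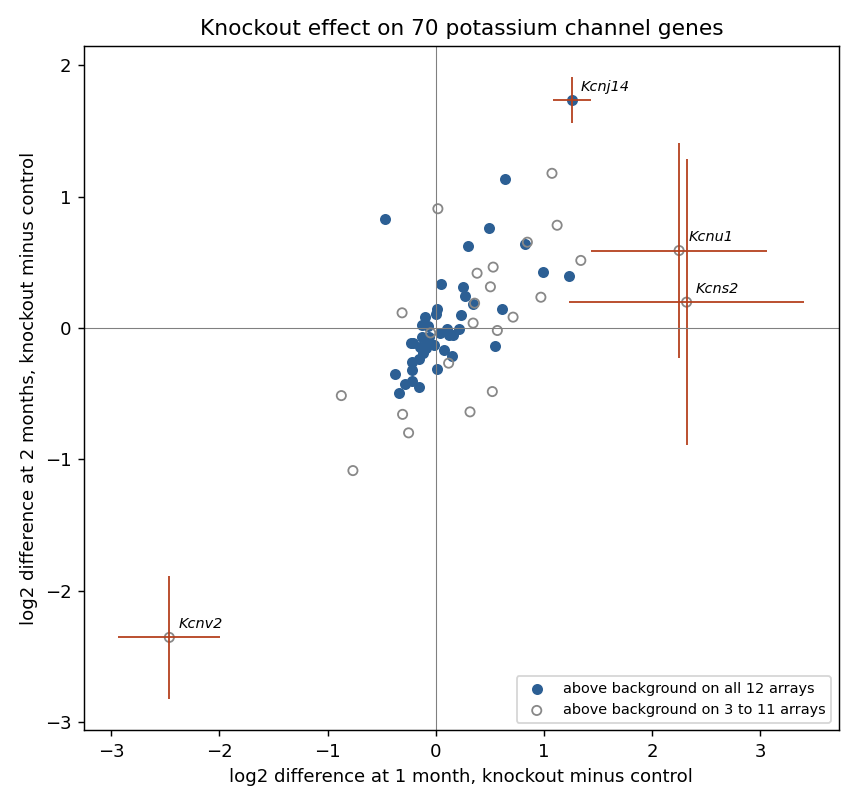
Log2 difference between knockouts and controls at 1 month (horizontal) and 2 months (vertical) for 70 of the 71 tested channel genes, leaving out Kcnj15. Filled points were above background on all 12 arrays and open points on fewer, and crosses show the SE of 4 named genes. Kcnv2 at -2.46 and -2.36 is the lowest gene shown at both ages. Kcnj14 at 1.26 and 1.74 is the highest at 2 months, while other genes, among them Kcnu1 and Kcns2, lie above it at 1 month. Neither Kcnu1 nor Kcns2 was above background on any 1-month control array. Their 1-month differences ranged from 0.22 to 2.92 and from 0.24 to 2.91 over the alternatives, and neither passed.

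No inward rectifier other than Kcnj14 passed in a knockout comparison. Kcnj12, which encodes Kir2.2, was at 1.54, 1.32 and 1.47 in 1-month controls and at 1.04, 1.22 and 1.23 in 1-month knockouts. In the 2-month hearts it was at 1.92, 1.70 and 1.70 in controls and at 1.33, 1.47 and 1.24 in knockouts. No knockout heart reached its control range, and the log2 difference was -0.28 (SE 0.11) and -0.43 (SE 0.11), with limma adjusted p of 0.769 and 0.253.

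Kcnj2, which encodes Kir2.1, the main inward rectifier of ventricular muscle, was at -2.00, -2.13 and -1.74 in 1-month controls and at -2.44, -2.29 and -2.27 in 1-month knockouts. At 2 months it was at -1.60, -2.16 and -2.42 in controls and at -2.36, -2.49 and -2.39 in knockouts, so the groups overlapped at 2 months and not at 1 month. The log2 difference was -0.37 (SE 0.19, limma adjusted p of 0.841) and -0.35 (SE 0.19, limma adjusted p of 0.768). Of the pore subunits of the ATP-sensitive channels, Kcnj11 differed by -0.22 and -0.32, and Kcnj8 by -0.08 and -0.13, and none passed. Of the 14 inward rectifiers, all tested, 6 lay above 0 and 8 below at 1 month, and 4 above and 10 below at 2 months, with Kcnj14 the only one that passed. Their median was -0.08 at 1 month and -0.12 at 2 months, and the median of all genes was 0.04 and 0.03. Relative to the median of all genes it was -0.13 and -0.15, and with median centring -0.13 and -0.12.

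Kcnj15 gave the largest fitted difference of the set at 1 month, 4.08, with an SE of 2.72. It rested on 1 array, the 1-month knockout replicate 2 at 8.67, while the other 10 measured arrays lay between -3.55 and -2.34, and 1 array had no value.

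Among the voltage-gated alpha subunits, Kcnd2, which encodes Kv4.2 of the fast transient outward current, was at 1.64, 1.11 and 1.56 in 1-month controls and at 1.37, 1.71 and 1.45 in 1-month knockouts. The 2-month levels were 1.69, 1.87 and 1.74 in controls and 1.66, 1.56 and 1.58 in knockouts. The groups overlapped at 1 month and did not at 2 months, and the log2 differences of 0.08 and -0.17 (SE 0.15 each) did not pass, with limma adjusted p of 0.918 and 0.929. A second Kcnd2 probe differed by -0.08 and -0.39, and it too was lower without overlap at 2 months. Kcnd3, which encodes Kv4.3, differed by 0.62 and 0.14 with an SE of 0.64, and its highest values, -0.69 and 0.07, were on the bright knockout arrays. Without the 3 bright arrays the Kcnd3 differences were 0.16 and -0.46, so the 2-month difference changed sign.

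The delayed rectifier genes Kcnq1 and Kcnh2 differed by 0.00 and 0.11, and by -0.07 and 0.02, with 1 knockout array of 2 months lacking a value for Kcnq1. Of the 25 tested voltage-gated subunits 16 lay above 0 at 1 month and 17 at 2 months, and none passed. Over all genes, 43.1% lay below 0 at 1 month and 45.3% at 2 months. The median of the 25 was 0.08 and 0.11, and that of all genes 0.04 and 0.03. At 1 month 13 lay above 0 with quantile scaling, 12 with median centring and 11 with normexp background. At 2 months these counts were 16, 14 and 15.

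Kcnk3, which encodes the two-pore channel TASK-1, was at 3.61, 3.50 and 3.53 in 1-month controls and at 3.30, 3.33 and 3.36 in 1-month knockouts. In the 2-month hearts it was at 3.61, 3.67 and 3.53 in controls and at 3.32, 3.43 and 3.27 in knockouts, so no knockout heart reached its control range. The log2 difference was -0.22 (SE 0.08, limma adjusted p of 0.767) and -0.26 (SE 0.08, limma adjusted p of 0.367). A second Kcnk3 probe differed by -0.31 and -0.24, also without overlap at both ages. None of the 9 tested two-pore genes passed in either comparison, and none of the 8 calcium- and sodium-activated genes did.

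Of the auxiliary subunits, Kcne4, which can suppress Kcnq1 and Kv1 channels, was at -2.71, -2.30 and -2.69 in 1-month controls and at -2.85, -3.06 and -2.80 in 1-month knockouts. The levels at 2 months were -2.61, -2.71 and -3.12 in controls and -3.19, -3.34 and -3.39 in knockouts. Knockout and control hearts separated fully at both ages, and the log2 differences were -0.34 and -0.49 (SE 0.16 each), with limma adjusted p of 0.841 and 0.432. Kcnip2, which encodes the KChIP2 partner of Kv4 channels, was tested with the other 13 auxiliary genes, and 0 of the 14 passed in either comparison.

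**Figure D4:**
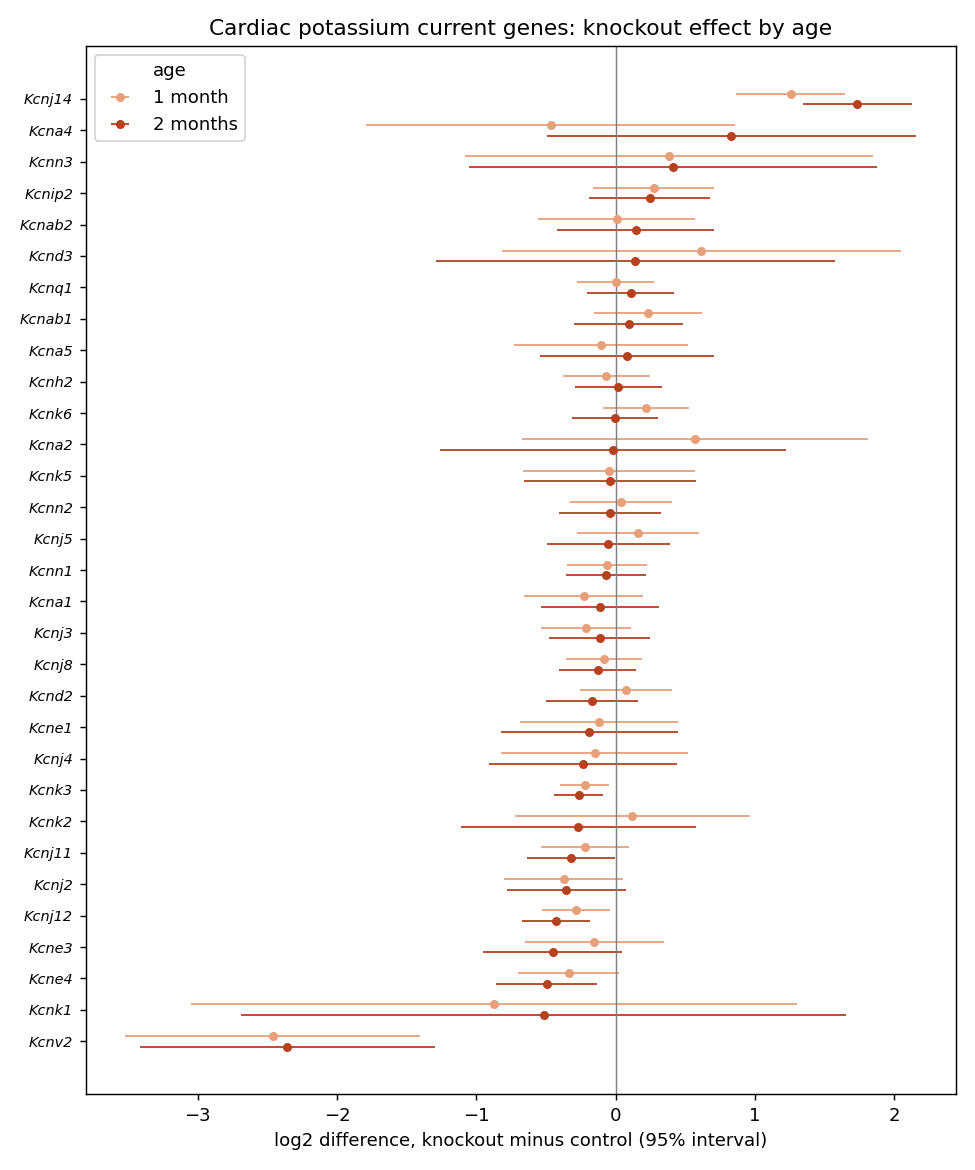
Log2 difference between knockouts and controls with its 95% interval for 31 of the 32 tested genes listed for cardiac potassium currents, at 1 month (light) and 2 months (dark). The intervals of Kcnj14 lie above 0 and those of Kcnv2, Kcnj12 and Kcnk3 below 0 at both ages, without adjustment for the number of genes.

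Of the 34 genes listed for cardiac potassium currents 32 were tested. Those below 0 numbered 18 at 1 month and 21 at 2 months, where 43.1% and 45.3% of all genes lay below 0. Their median was -0.07 and -0.06, and that of all genes 0.04 and 0.03. Kcnj14 at 2 months was the only one of the 32 that passed. Outside the Kcn names, 0 of 20 partners and regulators of potassium channels and 0 of 31 other tested cardiac ion channels and exchangers passed in either knockout comparison. The lowest p among the latter at 2 months was that of Cacna1h, a T-type calcium channel, at a log2 difference of 0.74 (SE 0.12, limma adjusted p of 0.0788).

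The second question was how the channel genes differed between 1 and 2 months within each genotype. The 1-month controls were alone on slide 1, so slide and age cannot be told apart in controls. Kcnj14 and Kcna7, which encodes the Kv1.7 subunit, rose with age in both genotypes, and Kcne1l, now named Kcne5 and encoding an auxiliary subunit, fell with age in controls. Of the 71 channel genes 2 passed as higher and 1 as lower in controls, where 2.09% of all genes passed, 0.771% as higher and 1.32% as lower. In knockouts 2 passed as higher and 0 as lower, where 0.707% of all genes passed, with 0.333% of all genes as higher.

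Kcnj14 rose by a log2 difference of 1.38 (SE 0.17, limma adjusted p of 0.00659) in controls and 1.86 (SE 0.17, limma adjusted p of 0.0115) in knockouts. All 2-month hearts lay above all 1-month hearts of the same genotype. The call in knockouts was lost without the 1-month knockout replicate 1 (limma adjusted p of 0.0834), without the 1-month knockout replicate 3 (limma adjusted p of 0.0959) and without the 2-month knockout replicate 2 (limma adjusted p of 0.056). Without the 3 bright arrays, Kcnj14 gave a difference of 1.28 in controls and 1.95 in knockouts, with limma adjusted p of 0.0576 and 0.127. Other scalings also ended the Kcnj14 call in controls, at 1.02 with quantile scaling (limma adjusted p of 0.0508), 0.54 with normexp background (limma adjusted p of 0.0649) and 1.13 with median centring (limma adjusted p of 0.235). In knockouts Kcnj14 passed at 1.88 with quantile scaling and at 1.23 with normexp background, and did not at 1.79 with median centring (limma adjusted p of 0.534).

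Kcna7 was at 0.08, -0.36 and 0.18 in 1-month controls and at 0.75, 0.78 and 0.70 in 2-month controls. In knockouts it was at -0.22, -0.14 and -0.17 at 1 month and at 0.46, 0.62 and 0.73 at 2 months. The ages did not overlap in either genotype, and the log2 difference was 0.78 (SE 0.14) in each, with limma adjusted p of 0.0245 in controls and 0.0452 in knockouts. Without the 3 bright arrays it was 0.76 and 0.70, with limma adjusted p of 0.137 and 0.208. The Kcna7 call in controls was lost without the 1-month control replicate 1 (limma adjusted p of 0.0559) and without any one of the 2-month controls (limma adjusted p of 0.066, 0.0711 and 0.0731).

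The call on Kcna7 in knockouts was the weakest of these, since it was lost in 10 of the 12 fits that each left out 1 array, and held only without the 1-month control replicates 2 and 3. The limma adjusted p in those 10 fits was 0.0622 to 0.168. The age effects of Kcna7 in knockouts and controls differed by 0.00 (SE 0.19).

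Kcne1l was at -2.41, -2.37 and -2.02 in 1-month controls and at -3.07, -3.15 and -3.14 in 2-month controls. In knockouts it was at -2.15, -2.01 and -1.73 at 1 month and at -2.40, -2.36 and -2.74 at 2 months. The ages did not overlap in either genotype. The log2 difference was -0.85 (SE 0.15, limma adjusted p of 0.0265) in controls and -0.54 (SE 0.15, limma adjusted p of 0.148) in knockouts, and the difference between these age effects was 0.32 (SE 0.22), with a limma adjusted p of 1.0. The Kcne1l call in controls was lost without any single control array, with limma adjusted p of 0.0565 to 0.0876 across those 6 fits. Without the 3 bright arrays the limma adjusted p was 0.0887. Between genotypes, Kcne1l was higher in every knockout heart than in every control heart at 2 months, and the groups overlapped at 1 month. That 2-month knockout difference did not pass, and it was 0.28 to 0.76 over the alternatives, none of which passed either.

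Kcne1, which encodes the minK subunit that joins Kcnq1 in the slow delayed rectifier, had its larger levels at 1 month. It was at 1.26, 0.78 and 1.68 in 1-month controls and at -0.34 and 0.21 in the 2 measured 2-month controls, since 1 array had no value for it. In knockouts it was at 0.90, 1.07 and 1.40 at 1 month and at -0.20, -0.36 and -0.20 at 2 months. The ages did not overlap in either genotype, and the log2 differences of -1.30 (SE 0.28) and -1.37 (SE 0.25) missed the threshold, with limma adjusted p of 0.0567 and 0.0518. The Kcne1 difference in knockouts passed without the 1-month control replicate 2 (limma adjusted p of 0.0451) and without the 1-month control replicate 3 (limma adjusted p of 0.0464).

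**Figure D5:**
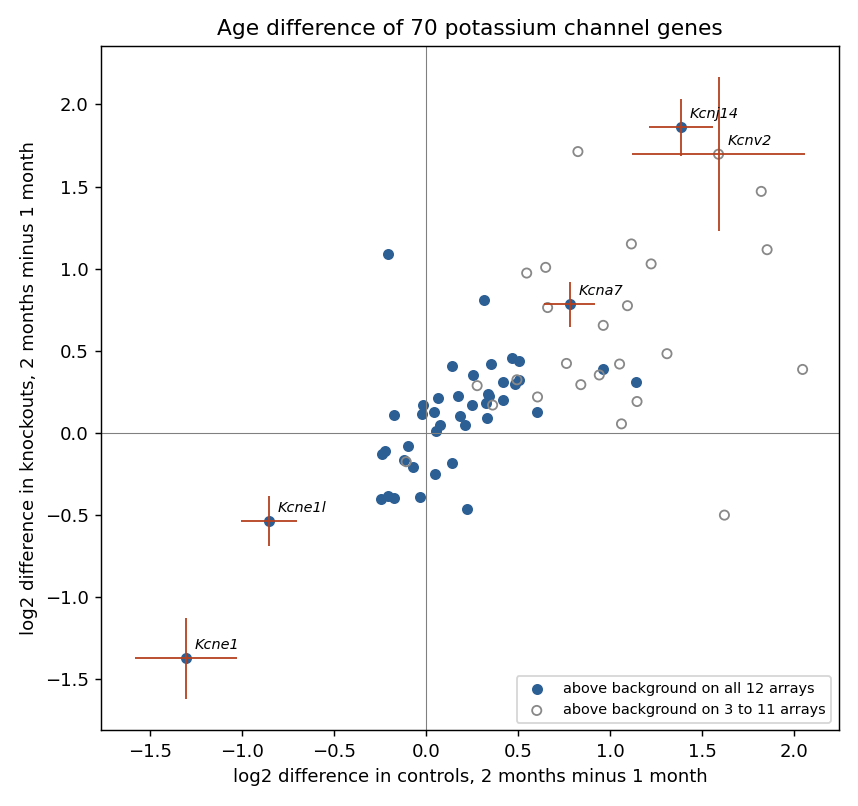
Log2 difference between 2 and 1 month in controls (horizontal) and knockouts (vertical) for 70 of the 71 tested channel genes, leaving out Kcnj15. Filled points were above background on all 12 arrays and open points on fewer, and crosses show the SE of 5 named genes. Kcnj14 lies at 1.38 and 1.86, Kcna7 at 0.78 in each, and Kcne1 at -1.30 and -1.37.

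Kcnn1, which encodes the small-conductance calcium-activated channel SK1, differed by 0.46 in controls and 0.46 in knockouts (SE 0.13 each), with limma adjusted p of 0.109 and 0.141. Kcnv2 differed with age by 1.59 in controls and 1.70 in knockouts (SE 0.47 each), with limma adjusted p of 0.133 and 0.14. Without the 1-month knockout replicate 1 the Kcnv2 difference passed in controls (limma adjusted p of 0.0156) and was 1.05 in knockouts, and without the 3 bright arrays it passed in controls (limma adjusted p of 0.0497). The knockouts lay below the controls of the same age at both ages, as given above. Median differences over the 71 genes were 0.34 in controls and 0.22 in knockouts, and over all genes 0.12 and 0.10. Relative to all genes the medians of the channel genes were 0.22 and 0.13, with median centring 0.22 and 0.13, with quantile scaling 0.02 and 0.08, and with normexp background 0.00 and 0.03.

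The probes of Kcna7 and Kcnj14 lie 406 kb apart on chromosome 7. That stretch was bounded by these 2 genes, which had passed with age, so their own calls in it were fixed in advance. Of 29 genes in the fit with a probe there, both ends included, no other gene passed as higher with age in either genotype. Over all genes 0.771% passed as higher with age in controls and 0.333% in knockouts. Promoters of 62 of the 84 channel genes were listed in RefSeq for GRCm38.p6, around the start of transcription, and were searched for TGTTCT or its reverse complement AGAACA, the half-site of the glucocorticoid response element. The half-site was in 16.1% of the channel promoters and in 21.3% of all promoters, and AGAACA followed by any 3 bases and TGTTCT was in 0 of the 62 and in 0.0111% of all promoters. Of the 8 genes with a probe shown above, Kcnj14, Kcnv2, Kcnk3 and Kcne1 were not among those listed.

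Markers of other cell types were set beside these results. The median of 8 fibroblast genes, each centred on its mean over the 12 arrays, was between 0.29 and 0.59 in 1-month controls. It was between -0.42 and -0.28 in 2-month controls, and 4 of the 8 fell with age in controls and 3 in knockouts. The median of 10 smooth muscle and pericyte genes was between 0.09 and 0.35 in 1-month controls. In 2-month controls it was between -0.21 and -0.03, and 2 of the genes fell with age there. Endothelial genes, 10 in number, had a median between -0.05 and -0.01 in 2-month controls and between -0.31 and -0.06 in 2-month knockouts. The corresponding median of 13 neuron and glia genes was highest on the 2 knockout arrays of slide 4, at 0.56 and 0.75. It was between -0.24 and 0.05 in 2-month controls and between 0.09 and 0.75 in 2-month knockouts, without overlap. At 1 month it was between -0.97 and 0.09 in controls and between -0.49 and 0.56 in knockouts. None of the 13 genes passed in a knockout comparison. Of the 10 ventricular cardiomyocyte genes 1, the beta myosin heavy chain gene Myh7, rose in knockouts at both ages and 0 fell. The median of the 10 lay between -0.19 and 0.28 on all arrays. The median of 12 skeletal muscle genes was between -0.11 and 0.18 in 2-month controls. In 2-month knockouts it was between 0.19 and 0.46, and Casq1 and Mybpc2 rose there. Of the marker lists, adipocyte and lung genes varied most between arrays. The median of 8 adipocyte genes was between -2.85 and 1.40 in 1-month controls and between -2.86 and 0.34 in 2-month controls. In knockouts it was between 0.59 and 1.63 at 1 month and between -0.57 and 0.50 at 2 months. The median of 7 lung genes was between -2.45 and 3.05 over all arrays, and no gene of these lists passed in a knockout comparison. The part of these cell types in the channel results was not tested.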

How the data were processed

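Total RNA from 12 hearts was hybridised on 1-colour arrays (Cy3), 1 per heart. Per the file headers, scanner files were made with Agilent Feature Extraction 9.5, whose processed intensity per spot had spatial and multiplicative detrending; the deposited table holds the same values. The number of arrays limits the precision. Spots of a probe were averaged on the log2 scale after leaving out non-uniform spots, and the authors' deposited processed intensity was then centred on each array's 75th percentile. Probes well above background on at least 3 of 12 arrays entered, and 1 probe per gene was used. limma 3.58.1 in R 4.3.3 fitted 1 mean per group over all 12 arrays and 21930 genes, with Benjamini-Hochberg adjustment and a threshold of 0.05. Each replicate is a separate heart. The samples lay on 4 slides scanned on 2 days: the 1-month controls were all on slide 1, and the 1-month knockouts on slides 2 and 4. The 2-month controls were on slides 2 and 3, and the 2-month knockouts on slides 3 and 4. Slide 4 alone was scanned on day 2 and held only the 1-month knockout replicate 1 and the 2-month knockout replicate 3, both bright arrays. Scan day was therefore partly confounded with genotype. Whether replicate numbers pair the samples is not known, and the main fit did not pair them. The correlations of deviations of same-numbered samples were -0.06 to 0.49 between genotypes and -0.69 to 0.28 between ages. With 3 per comparison they cannot decide it. Genes were named by the rule of the potassium channel set, those passing any comparison, those of lowest p and the cardiac current list. The members and lists were chosen with earlier results of these data known. The fit was checked on simulated data, and 28 or more alternatives per knockout comparison were tried. Values of some single genes are not reported here.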

Additional observations from a re-analysis of the deposited data

How the results depend on the processing

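At 1 month the count of channel genes that passed was 0, except with the filter at all 12 arrays above background (1, Kcnj14). At 2 months it was 1 in the main fit, 2 with normexp background, and 0 with median centring, replicate block, slide as a fixed term, a threshold fold of 1.5, only the compared arrays, within slide 3 and without the 3 arrays of highest share above background, a setting chosen after seeing the data. In controls with age the count was 3, and 4 with the filter at all 12 arrays, scan day as a fixed term or trend and robust, and 1 with quantile scaling or without the 3 arrays, and 0 with median centring, only the compared arrays or a threshold fold of 1.5. In knockouts with age it was 2, and 3 with normexp, the filter at all 12 arrays or trend and robust, and 1 with quantile scaling, no filter on dim probes, each probe tested on its own, the mean over a gene's probes, slide as a random block or scan day as a fixed term. It was 0 there with median centring, replicate block, slide as a fixed term, without the second scan day, only the compared arrays, a threshold fold of 1.5 or without the 3 arrays. Leaving out each array gave counts of 0 to 0 at 1 month, 1 to 2 at 2 months, 0 to 0 for the difference, 1 to 4 in controls and 0 to 3 in knockouts. The Nr3c1 difference of -0.998 at 1 month (limma adjusted p of 0.0516) was -0.98 with quantile scaling, -0.74 with normexp, -1.22 with median centring, -0.80 as the mean over probes and -0.998 with trend and robust or the stricter filter. At 2 months, -1.14, it was -1.18 with median centring, -1.14 with replicate block, only the compared arrays or a threshold fold of 1.5, -1.08 with slide as a fixed term, -1.11 without the second scan day, -1.04 within slide 3 and -1.12 without the 3 arrays, and no longer passed. Leaving out an array gave Nr3c1 -1.07 to -0.85 at 1 month and -1.17 to -1.09 at 2 months. Causes were not tested. Kcnj14 and Kcnv2 kept their knockout direction in every alternative. The replicate block moved the age call of Kcne1 in controls to a limma adjusted p of 0.0399, and whether the numbers pair the samples is not known. With normexp the 3 genes in controls were Kcna7, Kcne1 and Kcnv2. Slide as a fixed term could not be fitted for the other comparisons.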
